A study of Danio rerio with 16 samples.

Results

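Among the 248 zebrafish miRNAs on the array, 26 belonged to 14 numbered families that are known chiefly from muscle, from brain and other neuroendocrine tissue, or from the early embryo. They were chosen by name: every miRNA named miR-1, miR-7, miR-9, miR-124, miR-128, miR-132, miR-133, miR-137, miR-138, miR-206, miR-218, miR-219, miR-430 or miR-499, with any letter, arm or version suffix. The set held 8 muscle miRNAs (miR-1, both arms of miR-133a and miR-133b, miR-133c, miR-206 and miR-499), 13 brain miRNAs (miR-7a, miR-7b, both arms of miR-9 and miR-132, miR-124, miR-128, miR-137, miR-138, miR-218a, miR-218b and miR-219) and 5 members of the miR-430 family (a, b, c, i and j).

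The RNA came from livers of adult female zebrafish in 4 groups of 4 samples, each sample being a pool of 2 livers taken after 7 days. Fed fish, the control, ate throughout and had no drug. Fasted fish had neither food nor drug. Fed/FLX fish were fed and Fasted/FLX fish were fasted, and in both groups the water held fluoxetine (FLX), a selective serotonin reuptake inhibitor, at 540 ng/L. Each group had a tank of its own, so that the effects of group and of tank cannot be told apart. Each of 2 slides carried 2 arrays of every group, all FLX arrays in slide columns 2 and 4 and the others in columns 1 and 3, so that FLX and slide column cannot be told apart either. Arrays are named here by group and replicate number, as in Fed 2, after the sample that each scanner file belongs to. In the value table that accompanies the scans, 14 of 16 columns match the scan of a sample other than the one in the heading. Which labels are right was not settled, so that every value given by group or array rests on the labels of the scanner files.

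A miRNA is a short RNA that guides the silencing machinery to matching sites in messenger RNAs. miR-1, miR-133 and miR-206 are transcribed in skeletal or heart muscle cells, where they act on muscle growth and differentiation, and miR-499 lies within a myosin heavy chain gene and is made in slow and cardiac muscle. miR-124, miR-9, miR-128, miR-137, miR-138, miR-218, miR-219 and miR-132 mark neurons, neural progenitors, motor neurons or oligodendrocytes, and miR-7 is found in neuroendocrine cells, including those of the pancreatic islets. In zebrafish, miR-430 is switched on when the zygotic genome starts to be transcribed and clears maternally supplied messenger RNAs. In the RefSeq annotation of the GRCz12tu assembly, which differs from the assembly named for these arrays and was used for names and neighbours alone, the 14 families counted 99 hairpin genes, of which 58 were of miR-430, 7 of miR-9, 6 of miR-124 and 1 of miR-499. The hairpin genes of miR-206 lay beside those of miR-133b and miR-133c, a miR-1 gene beside a miR-133a gene, and the miR-499 gene beside a myosin heavy chain gene, so that several muscle members can come from shared transcripts. Members of a family are close to each other in sequence, and the share of signal that one member's RNA gives on another's probes was not tested. Nor was it tested between families, such as miR-1 and miR-206.

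Nearly all of the 26 miRNAs were silent in liver. Each had 60 spots per array from 2 probes, and the detection rule asked that 50% or more of them, leaving out those that the scanner software marked as outliers, be marked well above background on the array. By this rule 24 of the 26 were detected on none of the 16 arrays. miR-133b-3p was detected on 1 array, Fed 2, and miR-499 on 2 arrays, Fed 4 and Fed/FLX 3. With outlier spots kept, the detection on Fed/FLX 3 was lost and the other 2 held. Over all 248 miRNAs, 108 (43.5%) were detected on at least 1 array, against 2 (7.69%) of these 26, and of the 79 miRNAs that were detected on all 4 arrays of some group, 0 were among them. In bulk RNA, fewer cells of a type and less RNA per cell cannot be told apart.

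Fed arrays detected 0.5 ± 0.577 of the 26 (SD, n = 4) and Fed/FLX arrays 0.25 ± 0.5 (SD, n = 4), whereas every Fasted and every Fasted/FLX array detected 0. All 4 groups overlapped at 0. Of all 248 miRNAs, Fed arrays detected 64 to 77, Fasted arrays 74 to 78, Fed/FLX arrays 65 to 87 and Fasted/FLX arrays 83 to 92. The scanner software also gives 1 mark per miRNA and array, with a total gene signal that is set to 0.1 where the mark is absent, and it marked 4 of the 26 on some array against 125 of all 248. miR-133b-3p had this mark on Fed 2 and Fasted/FLX 1, miR-206 on Fed 2, miR-499 on Fed 4, Fed/FLX 3 and Fasted/FLX 1, and miR-7a on Fed 1 and Fasted 1. The other 22 miRNAs had it on 0 of 16 arrays.

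The samples gave signal for the miRNAs of a liver list. Of its 5 miRNAs, 3 (miR-122, miR-192 and miR-194a) were detected on all 16 arrays, miR-148 on 12 and miR-194b on 1. Their summed total gene signal was between 15100 and 36000 per array. Of the lists for other cells in the sample, 2 of 2 red blood cell miRNAs, 3 of 4 white blood cell miRNAs, 3 of 3 endothelial miRNAs and 3 of 4 pancreatic miRNAs were detected on some array, against 0 of 2 gonadal and 0 of 16 further neural and sensory miRNAs. By the scanner software's mark, 1 gonadal miRNA (miR-202-5p, on 2 arrays) and 1 neural miRNA (miR-129-3p, on all 16 arrays, with a total gene signal of 22.1 to 33.5 and at most 47.5% of spots well above background) were marked. On each array, 434 negative-control spots gave a median background-subtracted intensity (spot brightness minus the local background, in linear scanner units) of between 1.6 and 4.19, and of the 6801 such spots over 16 arrays that had no outlier mark, 0 rose well above background.

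The 22 unmarked miRNAs had median intensities that lay mostly below the negative-control median. Over the 16 arrays, 99 of the 24372 spots of all 26 miRNAs with no outlier mark (0.406%) stood well above background. For all 248 miRNAs this was 30.5%. The 22 unmarked miRNAs held 2 of their 20620 such spots (0.0097%). They were picked for having no mark, which rests on the same spots, so that a low share was fixed by the choice. The median intensity of an unmarked miRNA on an array was between -5.97 and 3.97, with a middle value of -3.02. Values below 0 mean spots dimmer than their surroundings, and 9 of the 352 medians (22 miRNAs on 16 arrays) lay above the negative-control median of their own array. The same count was not made for the other unmarked miRNAs on the array, so that it does not set these 22 apart. A value at background gives a limit on this array's sensitivity and does not show that the RNA is absent.

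**Figure D1:**
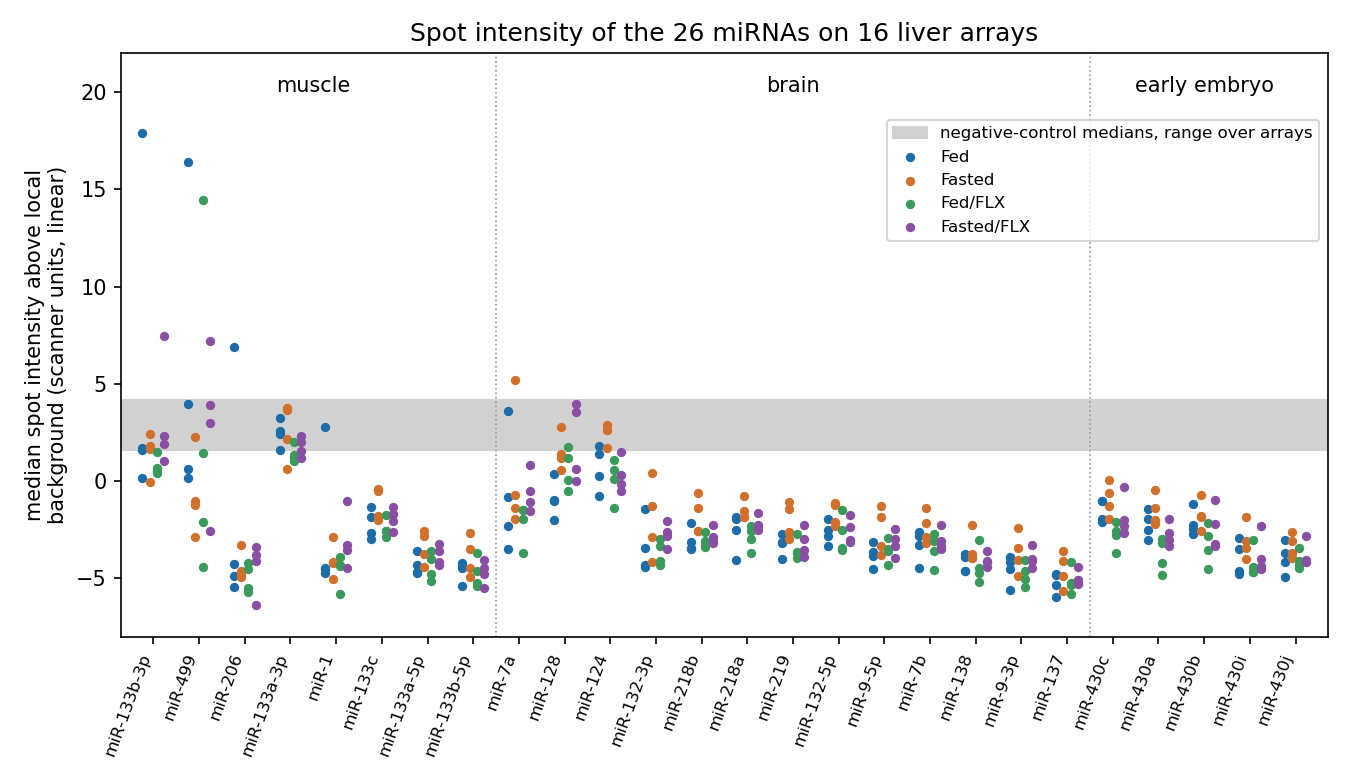
Median background-subtracted spot intensity (linear scanner units) of each of the 26 miRNAs on each of 16 arrays, 1 point per array, coloured by group. The grey band spans the negative-control medians of the arrays, 1.6 to 4.19. Points clearly above the band belong to miR-133b-3p, miR-499 and miR-206, with 1 point of miR-7a at 5.19.

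In the brain set, 12 of 13 miRNAs carried no mark on any array. miR-124, the most abundant miRNA of neurons, had a median intensity of between -1.4 and 2.89, and above the negative-control median on 1 array. The brightest of the 12 was miR-128, with medians of between -1.99 and 3.97. Its highest array was Fasted/FLX 3, and it lay above the negative-control median on 2 arrays. miR-137, which acts in neuronal differentiation, had medians of between -5.97 and -3.6. miR-9-5p, of neural progenitors, lay between -4.53 and -1.3, and its passenger arm miR-9-3p between -5.58 and -2.41. miR-218a, of motor neurons, lay between -4.05 and -0.76, and miR-219, of oligodendrocytes, between -4.02 and -1.09. For miR-132-3p, which neurons make in response to activity, the highest median was 0.42, on Fasted 1. For 9 of the 12 the highest array was Fasted 2, the array with the highest negative-control median (4.19).

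miR-7a was the 1 exception of the brain set. Its intensity median was 3.59, -3.48, -2.31 and -0.81 on Fed 1 to 4, 5.19, -0.72, -1.4 and -1.97 on Fasted 1 to 4, -3.7, -1.47, -1.93 and -1.5 on Fed/FLX 1 to 4, and -1.53, -1.08, -0.51 and 0.83 on Fasted/FLX 1 to 4. Fed 1 and Fasted 1 were the high arrays, 1 in each of 2 groups, and the remaining arrays of all 4 groups overlapped. Both high arrays lay on slide 1 in slide column 1, and the part of position in this signal was not tested. The total gene signal was 18.8 on Fed 1 and 18.9 on Fasted 1, and 5.08% of its spots on Fasted 1 were well above background against 0% on Fed 1. On the second of its 2 probes the medians were 9.41 on Fed 1 and 9.28 on Fasted 1, and on the first -0.08 and 1.36. Its paralogue miR-7b stayed between -4.56 and -1.36.

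Pancreatic miRNAs were measured on the same arrays. miR-375, a miRNA of pancreatic islet cells, was neither detected nor marked on any of the 16 arrays. miR-216a, miR-216b and miR-217, miRNAs of pancreatic acinar cells, were detected on 15, 13 and 11 arrays, and all had their highest RMA value (the log2 level after background correction, quantile normalization over arrays and a summary over spots) on Fasted 1, whereas on Fed 1 they ranked 8, 12 and 12 among the 16 arrays. By RMA value miR-375 ranked 1 on Fed 1 (2.14) and 2 on Fasted 1 (1.78), the ranks that miR-7a had there. These were values of an undetected miRNA. The 4 pancreatic miRNAs summed to a total gene signal of 148 to 339 on Fed arrays, 213 to 758 on Fasted arrays, 38.3 to 460 on Fed/FLX arrays and 55.7 to 564 on Fasted/FLX arrays, with 239 on Fed 1 and 758 on Fasted 1. The part of pancreatic RNA in the miR-7a signal was not tested.

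All 5 miR-430 members were silent. On the 16 arrays, 0 of 4684 spots were well above background, and the medians lay between -4.93 and 0.06. miR-430c had the range from -3.7 to 0.06, miR-430a that from -4.83 to -0.47, and miR-430j that from -4.93 to -2.59. These intervals lay below the negative-control medians in all 4 groups.

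In the muscle set the signal lay on single arrays. For 3 of its 8 members the scanner software gave a mark on some array, and the summed total gene signal of all 8, of which 0.8 is the sum of 8 unmarked values, reached 87.0 at most on Fed arrays, 37.7 on Fed/FLX arrays and 45.6 on Fasted/FLX arrays and stayed at 0.8 on each Fasted array. Fed 2, Fed 4, Fed/FLX 3 and Fasted/FLX 1 were the 4 arrays above 0.8.

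miR-206, which promotes the differentiation of skeletal muscle cells, had RMA values of 1.03, 4.13, 1.24 and 1.22 on Fed 1 to 4. On the 12 arrays of the other groups the value was at most 1.71, on Fasted/FLX 4. Fed 2 thus stood apart from the other 15 arrays, which overlapped between groups. Its median intensity on Fed 2 was 6.87 against -6.36 to -3.27 on the others, its total gene signal was 18.3, and 0% of its spots passed the mark of well above background, so that it did not meet the detection rule. The medians of its 2 probes on Fed 2 were 4 and 9.31.

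miR-133b-3p, made from a hairpin beside one of the miR-206 genes, had RMA values of 3.08, 5.02, 3.04 and 2.98 on Fed 1 to 4. The values were 2.86, 3.06, 3.04 and 2.82 on Fasted 1 to 4, 3.25, 2.93, 3.08 and 3.11 on Fed/FLX 1 to 4, and 3.60, 3.09, 3.01 and 3.15 on Fasted/FLX 1 to 4. Fed 2 was the highest array and Fasted/FLX 1 the next, and the other arrays of all groups overlapped. On Fed 2 the total gene signal was 68.1 and 51.7% of spots were well above background, which was just inside the rule of 50%. On Fasted/FLX 1 these were 22.3 and 3.33%. By probe, 1 of 30 and 30 of 30 spots passed on Fed 2, and the median intensities of the same probes were 9.83 and 24.8.

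miR-1, of skeletal and heart muscle, was at 3.49 on Fed 2 and 2.52 on Fasted/FLX 1, and on the other 14 arrays between 1.12 and 1.87 (RMA values). It was nowhere marked. Its median intensity of 2.77 on Fed 2 was the 1 median of its 16 that lay above the negative-control median of the array (1.75). That median lay below the 95th percentile of single negative-control spots there (4.86). By probe, the medians of miR-1 on Fed 2 were -1.46 and 6.55, the second above that percentile. On Fasted/FLX 1 they were -3.17 and 2.44. miR-133a-3p, made beside miR-1 and close to miR-133b-3p in sequence, had an RMA value of 3.65 on Fed 2 against at most 3.50 on the other 15 arrays. Its median spot intensity before normalization was highest on Fasted 1 (3.77, against 3.27 on Fed 2). The negative-control medians of these arrays were 3.54 and 1.75. By probe, the medians of miR-133a-3p were 4.39 and 3.11 on Fasted 1, and 2.94 and 4.33 on Fed 2. It was nowhere marked either. The remaining miR-133 products, miR-133a-5p, miR-133b-5p and miR-133c, had median intensities of at most -0.38.

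miR-499 had another set of arrays. Its RMA values were 3.49, 3.25, 2.68 and 4.76 on Fed 1 to 4, 1.82, 3.11, 2.49 and 2.62 on Fasted 1 to 4, 2.03, 3.05, 4.21 and 2.37 on Fed/FLX 1 to 4, and 3.58, 3.28, 3.50 and 2.19 on Fasted/FLX 1 to 4. Fed 4 and Fed/FLX 3 were the highest arrays, Fed 2 ranked 7 of 16, and the 4 groups overlapped. Total gene signals were 65.2 on Fed 4, 37.0 on Fed/FLX 3 and 22.7 on Fasted/FLX 1. On both detected arrays the share of spots well above background was 50%, the value of the rule itself. By probe, 0 and 30 of 30 spots passed on Fed 4 (median intensities 9.41 and 23.9), and 0 of 27 and 28 of 29 on Fed/FLX 3 (medians 6.6 and 18.7).

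**Figure D2:**
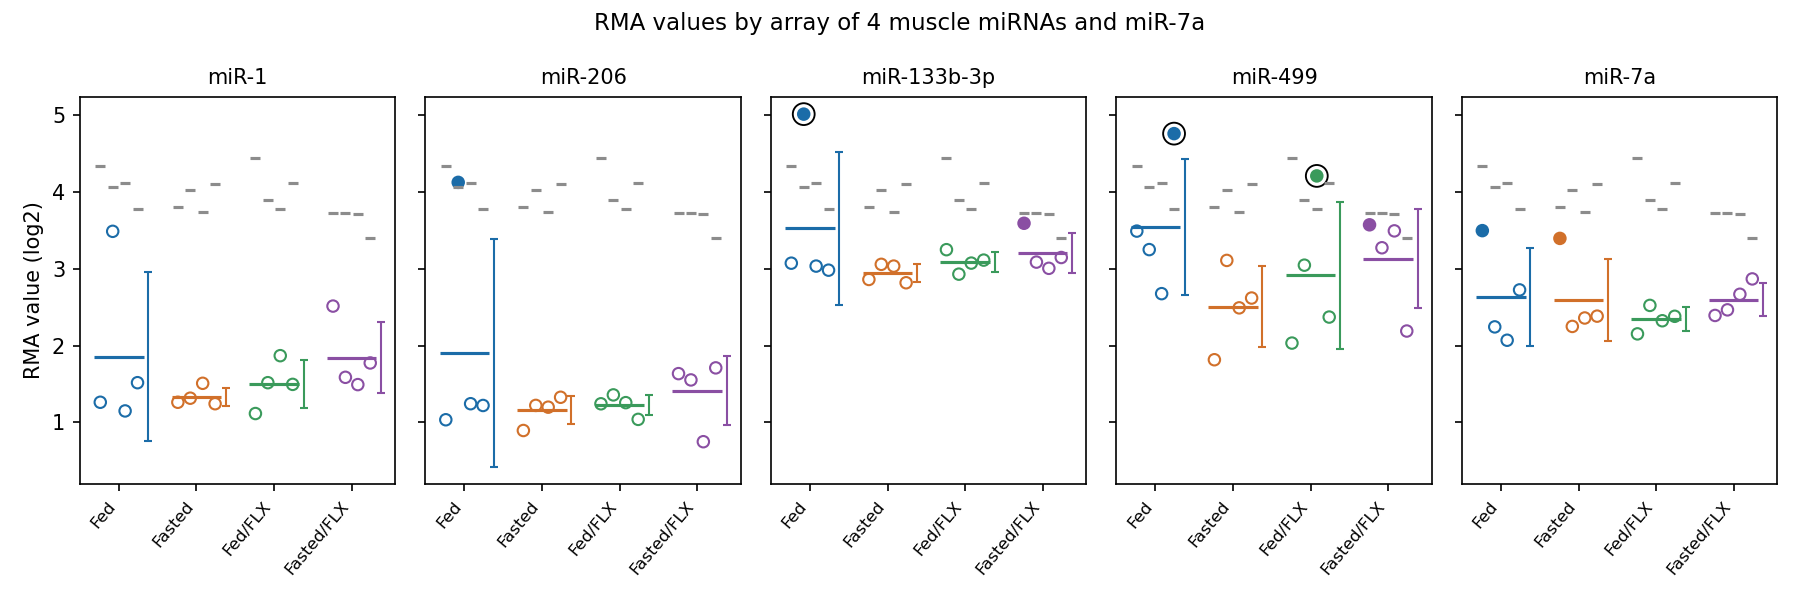
RMA values (log2) of miR-1, miR-206, miR-133b-3p, miR-499 and miR-7a, with 4 arrays per group in replicate order, the group mean as a line and 1 SD as a bar beside it. Filled points carry the scanner software's mark, black rings show the 3 detected values and grey dashes the lowest value among detected miRNAs of the same array (3.40 to 4.45). Fed 2 is high for miR-206, miR-133b-3p and miR-1, and Fed 4 and Fed/FLX 3 for miR-499.

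How far a single array stood out was compared over all 248 miRNAs by the margin of each miRNA's highest array over its next-highest one, a description with no test. miR-206, miR-133b-3p and miR-1 were not detected on their next-highest arrays, so that the size of their margins depends on how background was treated. In RMA values, miR-206 had the largest margin of all 248 (2.42 on the log2 scale) and miR-133b-3p the next (1.42), both on Fed 2. miR-1 ranked 6 (0.97, Fed 2) and miR-499 ranked 13 (0.55, Fed 4). Of the 13 margins above 0.5, 4 were of these 26 miRNAs. Fed 2 was the highest array for 12 of the 248 miRNAs, and the 3 of them with a margin above 0.5 were miR-206, miR-133b-3p and miR-1, all of the muscle set. Whether these were 3 separate signals was not tested. On Fed 2 the number of miRNAs detected was 64, the lowest of the 16 arrays. In 3 other settings, tried after the data were seen, Fed 2 was still the highest array for miR-206, miR-133b-3p and miR-1 and Fed 4 for miR-499. The margin of miR-206 was then 0.35 (rank 7) with an offset of 50 in the background correction, 2.02 (rank 1) without quantile normalization and 3.49 (rank 1) without background correction. That of miR-133b-3p was 0.42 (rank 5), 0.78 (rank 6) and 2.27 (rank 3), that of miR-1 0.15 (rank 24), 0.69 (rank 8) and 2.33 (rank 2), and that of miR-499 0.16 (rank 23), 0.22 (rank 74) and 0.77 (rank 13). The setting without background correction kept the scanner software's subtraction of the local background and raised values below a floor of 1 to that floor. miR-206 and miR-1 had median intensities below the floor on every array but Fed 2, so that their margins in this setting depend on it. What set Fed 2 apart for these miRNAs was not tested.

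**Figure D3:**
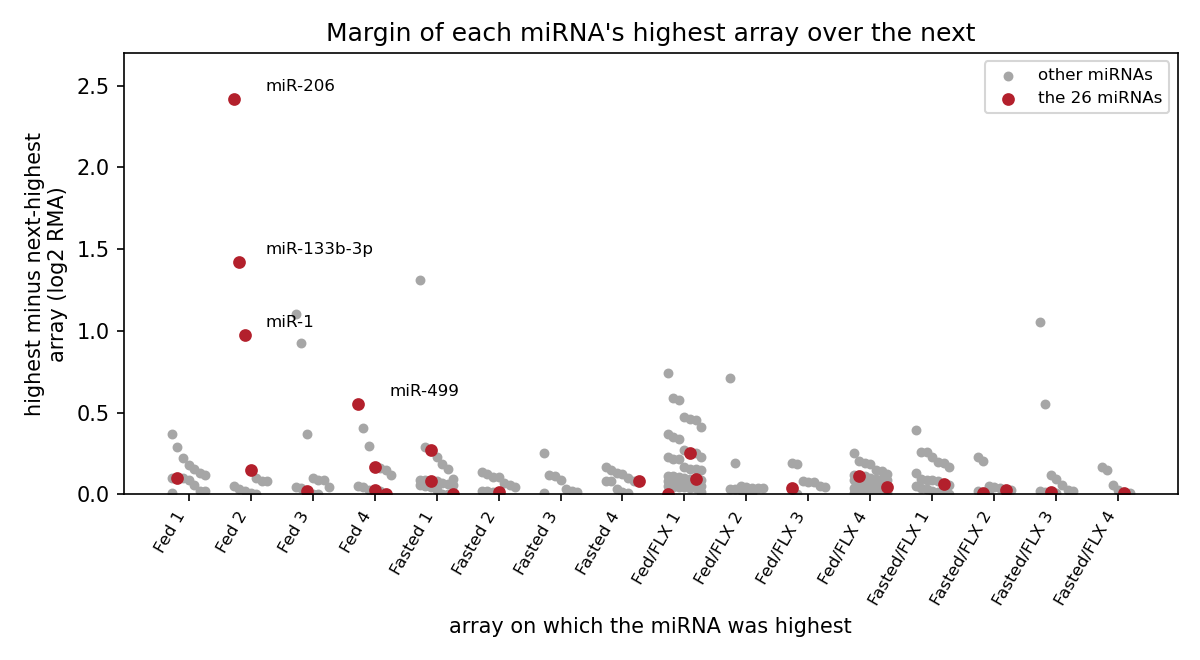
Margin in log2 RMA value between the highest and the next-highest array, for each of 248 miRNAs, placed at the array where it was highest. Red points are the 26 miRNAs and grey points the others. The 3 highest points on Fed 2, at 2.42, 1.42 and 0.97, are miR-206, miR-133b-3p and miR-1.

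The design asks whether fasting, FLX or both changed liver miRNAs, and for the 26 the count of calls was 0. All 248 miRNAs were fitted with limma over the 16 arrays, and a miRNA was called at a Benjamini-Hochberg adjusted p under 0.05 and at least a 2-fold difference. Of the 26, 0 were called in Fasted against Fed (all miRNAs: 0%), 0 in Fed/FLX against Fed (0.403%), 0 in Fasted/FLX against Fed (0%), 0 in Fasted/FLX against Fasted (0%), 0 in Fasted/FLX against Fed/FLX (0%) and 0 for the interaction of FLX and fasting (0.806%). The methods' own test at its threshold also gave 0 of 26 in the 5 comparisons of groups, for which it was run. At an unadjusted p under 0.05 with no minimum fold, the counts in the same order were 2, 4, 3, 1, 1 and 2 of 26, against 11.7%, 23.4%, 16.1%, 16.9%, 11.7% and 12.9% of all miRNAs. The median log2 difference of the 26 was between -0.04 and 0.02 in the 6 comparisons, and that of all 248 between -0.02 and 0.01.

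The detected and marked muscle miRNAs differed between group means by less than, or little more than, their spread within the Fed group. miR-499 was 3.55 ± 0.88 on Fed arrays, 2.51 ± 0.53 on Fasted arrays, 2.92 ± 0.96 on Fed/FLX arrays and 3.13 ± 0.64 on Fasted/FLX arrays (mean RMA value ± SD, n = 4), and its log2 difference of -1.04 (SE 0.50) between Fasted and Fed did not pass (limma adjusted p = 0.394). miR-206 was 1.91 ± 1.48 in Fed and 1.16 ± 0.19 in Fasted, a log2 difference of -0.75 (SE 0.51, limma adjusted p = 0.602). For miR-133b-3p the log2 differences from Fed were -0.58 (SE 0.34, adjusted p = 0.518) in Fasted, -0.43 (SE 0.34, adjusted p = 0.519) in Fed/FLX and -0.32 (SE 0.34, adjusted p = 0.694) in Fasted/FLX, all by limma. Without Fed 2 these became -0.09, 0.06 and 0.18, and between Fasted and Fed the difference went from -0.75 to -0.01 for miR-206 and from -0.52 to 0.02 for miR-1. The 3 comparisons share the Fed arrays. No fold is given for any of the 26, since where 1 group had a detected array, its mean over 4 arrays was below the level of the dimmest detected miRNAs in the other group, and miR-499, detected in both Fed and Fed/FLX, was so on 1 array of 4 in each.

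Without the minimum fold, 2 of the 26 passed in Fed/FLX against Fed (all miRNAs: 12.9%) and 1 in Fasted/FLX against Fed (4.84%). In the other 4 comparisons 0 passed, namely Fasted against Fed (0%), Fasted/FLX against Fasted (6.45%), Fasted/FLX against Fed/FLX (1.61%) and the interaction (1.61%). miR-128 was 2.68, 2.69, 2.68 and 2.62 on Fed 1 to 4 and 2.93, 2.96, 3.02 and 2.95 on Fed/FLX 1 to 4 (RMA values), groups that did not overlap. The log2 difference was 0.30 (SE 0.07, limma adjusted p = 0.0211), and that between Fasted/FLX and Fed 0.27 (SE 0.07, limma adjusted p = 0.0472). The limma adjusted p of the first was above 0.05 in 9 alternatives. Among these it was 0.0593 without Fed 4, 0.0584 without Fed/FLX 3 and 0.467 without quantile normalization. The limma adjusted p of the second was above 0.05 in 18 alternatives. Among these were 7 of the 8 fits that left out 1 of the arrays compared, and it was 0.0295 without Fasted/FLX 1. miR-430a was 2.09, 2.29, 2.44 and 2.47 on Fed 1 to 4 and 1.59, 2.07, 1.80 and 1.69 on Fed/FLX 1 to 4, again without overlap, with a log2 difference of -0.54 (SE 0.10, limma adjusted p = 0.00759). It was -0.36 (limma adjusted p = 0.558) on slide 1 alone and 0 (limma adjusted p = 1) after the arrays were scaled by a percentile of their spots and floored, 2 of the 5 alternatives in which the adjusted p was above 0.05. The highest median intensity of miR-430a on any array was -0.47, below the floor, so that a floored setting could not show a difference for it. The largest of these differences was under 2-fold. Before normalization the groups overlapped for both, with median intensities for miR-430a of -3.05 to -1.42 in Fed and -4.83 to -2.98 in Fed/FLX, and for miR-128 of -1.99 to 0.35 and -0.52 to 1.77. Neither miRNA was detected on any array, so that these were differences among values at background, and their relation to slide column cannot be told apart from FLX. For miR-128 the Fasted arrays, without FLX and in the slide columns of Fed, also lay above every Fed array. Its RMA values there were 2.865, 2.967, 2.754 and 2.743 on Fasted 1 to 4, a log2 difference from Fed of 0.164 (limma adjusted p = 0.39). For miR-430a the Fasted and Fed arrays overlapped. The other 4 miR-430 members had log2 differences of -0.29 (b), -0.25 (c), -0.01 (i) and 0.01 (j) between Fed/FLX and Fed, with limma adjusted p of 0.143, 0.0841, 0.974 and 0.953.

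**Figure D4:**
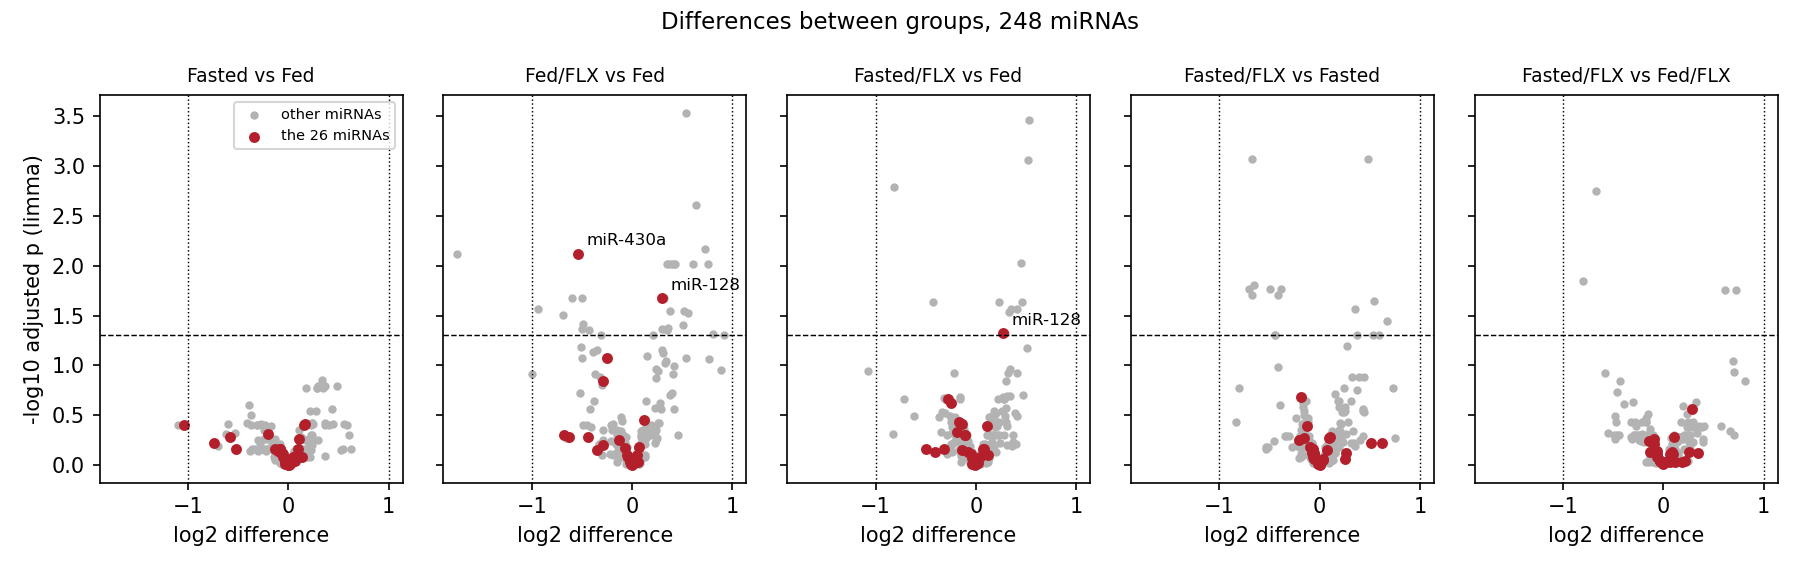
Log2 difference (horizontal axis, first group minus second) and -log10 of the limma adjusted p (vertical axis) of 248 miRNAs in the 5 comparisons of groups. The dashed line marks an adjusted p of 0.05 and the dotted lines a 2-fold difference. The red points of the 26 miRNAs stay under the dashed line except miR-128 and miR-430a in Fed/FLX against Fed and miR-128 in Fasted/FLX against Fed.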

How the data were processed

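Per the labels and the study's methods, liver RNA was hybridized to 1-colour custom Agilent miRNA arrays. The authors deposited the scanner output of Agilent Feature Extraction 11.0.1.1, which gives the intensity of each spot after subtraction of the local background and no normalization between arrays. They also deposited a table of log2 values, in which 22 of the 26 miRNAs were listed, all at the lowest value of every column, and 4 (miR-133b-3p, miR-206, miR-499 and miR-7a) had no row. Of its 16 columns, 14 matched the scan of another sample, so that groups were taken from the labels of the scanner files and the table was not used for any test.

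RMA values were computed with limma 3.58.1 (R 4.3.3): normal-exponential background correction, control and outlier spots removed, quantile normalization, log2 and median polish (at most 20 iterations). GeneSpring GX settings were not given in the sources used here. Groups were compared with lmFit and eBayes, 1 mean per group over 16 arrays, and p-values were adjusted over 248 miRNAs. Samples were separate pools of livers, but of 1 tank per group. The steps were tested on simulated data. Group changes were put into miRNAs detected on all 16 arrays, which include none of the 26, and miR-206 was raised on a single array. How well group differences at background would be called was thus not measured. By the naming rule, miRNAs detected or marked on some array or past an adjusted p of 0.05 were described by array. Array values of miR-1, miR-133a-3p and other miRNAs outside the rule were chosen for print after they were seen. The 26 members, the lists and the tests were chosen with earlier results of these data known. Alternatives were other scalings, background corrections, summaries, filters, blocks, single slides, left-out arrays and the methods' test. Over the 4 same-numbered pairs of Fed and Fasted arrays, deviations from group means correlated at 0.193, 0.265, 0.204 and 0.113, all above 0.1. For the remaining 5 pairings of groups, between 0 and 2 of the 4 correlations exceeded 0.1, with values down to -0.379. The replicate number, used as a block over all groups in an alternative fit, thus went with shared deviations in Fed and Fasted arrays but not the others. Same-numbered Fed and Fasted arrays also shared slide and slide column, so that a pairing of samples and position cannot be told apart. Same-numbered Fed/FLX and Fasted/FLX arrays shared them too, with 1 of 4 correlations above 0.1. Python 3.11.15, numpy 2.4.6, pandas 2.3.3 and matplotlib 3.10.9 were used for tables and figures. No miRNA sequence was printed, since no table of them was used here.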

Additional observations from a re-analysis of the deposited data

Results flagged for a closer look

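In 10 of the 104 sets of 4 arrays (26 miRNAs in 4 groups), 1 array's RMA value lay far from the other 3, where chance gives about 1 in 20 (5%). This was 9.62% of the sets, against 6.45% (64 of 992) over all 248 miRNAs, a difference that was not tested. On Fed 2 these were miR-206 at 4.13 (others 1.03 to 1.24), miR-133b-3p at 5.02 (2.98 to 3.07), miR-1 at 3.49 (1.15 to 1.52) and miR-133a-3p at 3.65 (3.21 to 3.25), all high. miR-7a was high on Fasted 1, at 3.4 (2.25 to 2.39), and miR-133a-5p on Fasted/FLX 4, at 1.78 (1.6 to 1.62). The low ones were miR-128 on Fed 4, at 2.62 (2.68 to 2.69), miR-133b-5p on Fasted/FLX 4, at 1.13 (1.41 to 1.45), miR-138 on Fasted 1, at 1.54 (1.67 to 1.69), and miR-206 on Fasted/FLX 3, at 0.75 (1.55 to 1.71). Of the 10, miR-133b-3p alone was detected on the array concerned, and miR-206 on Fed 2 and miR-7a on Fasted 1 carried the scanner software's mark.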

How the results depend on the processing

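The count of 0 of the 26 miRNAs called held in all 6 comparisons under each scaling, background correction, summary and single slide tried, in each comparison when any array it uses was left out, and with the replicate number as a block (replicate block, 0). It became 2 in Fed/FLX against Fed and 1 in Fasted/FLX against Fed with no minimum fold. Some settings could hardly give a call. Total gene signals were 0.1 on every array for the 22 unmarked miRNAs, so that no difference was possible there. An offset of 50 shrinks differences between low values, as in the margin of miR-206 (2.42 without it, 0.35 with it). The 0 calls in these settings therefore add little. By the scanner software's mark, 1 of the 26 per Fed array was detected in place of 0.5, 0.25 per Fasted array and 0.5 per Fasted/FLX array in place of 0, with 0.25 per Fed/FLX array as before. With outlier spots kept, the Fed/FLX value went from 0.25 to 0, and with at least 75% of spots required, 0 were detected in every group. On slide 2 alone, where Fed 2 is absent, the log2 difference from Fed turned to 0.043 for miR-1 and 0.031 for miR-206 in Fasted, and for miR-133b-3p to 0.085 in Fed/FLX and 0.068 in Fasted/FLX. On slide 1 alone that of miR-499 in Fasted/FLX was 0.053. Leaving out 1 array at a time gave -0.757 to 0.023 for miR-1 in Fasted, and for miR-133b-3p -0.616 to 0.062 in Fed/FLX and -0.499 to 0.178 in Fasted/FLX, the highest value in each case without Fed 2. None of these differences passed an adjusted p of 0.05 by limma. For miR-430a between Fed/FLX and Fed the leave-one-out values were -0.631 to -0.471 (limma adjusted p 0.000922 to 0.0281), and the adjusted p was above 0.05 in 5 alternatives: 0.0599 with the 2 groups alone in the fit, 0.558 on slide 1 alone (-0.358), and 1 in 3 settings where low values are set to a floor (difference of 0). Those 3 could not show a difference for miR-430a, since its median intensities lay below the floor on every array. In 2 of those 3, no background correction and total gene signals, the differences of miR-128 were also 0. Over all alternatives that give one, the limma adjusted p of miR-128 ran from 0.0162 to 1 in Fed/FLX and from 0.0295 to 1 in Fasted/FLX. The authors' table and a filter that keeps miRNAs detected throughout some group were not run, since they left no value above the lowest and no member, respectively. Signal at background limits what the arrays can show for all of the 26. Of these, 22 were marked on no array. miR-133b-3p, miR-206, miR-499 and miR-7a were marked on 2, 1, 3 and 2 of 16 arrays.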
